A study of Mus musculus with 2 samples.

Results

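Fgf7, Fgf10, Fgf18 and Fgf1 are paracrine fibroblast growth factor (FGF) genes that were counted in single cultured cells of 2 mouse fat depots. The 4 genes were taken as a named set, and all 4 are listed in both count matrices, among 27995 genes that the matrices share and 30614 in either. The cells came from the stromal vascular fraction of inguinal white (iWAT) and interscapular brown (iBAT) adipose tissue of wild-type C57BL/6N mice aged 8 to 12 weeks, with the tissue of several animals pooled. They were grown to 80% confluency and then left untreated or exposed for 48 h to FGF1, FGF2 or FGF8 protein (5.5 nM). The 4 cultures of a depot went into 1 BD Rhapsody library, a microwell assay that labels transcripts by cell and tags every molecule with an identifier (UMI) of its own. Treatments and age are given as in the labels, whereas the study's methods name vehicle, FGF1 and FGF2 for these cells and another age range. The treatment of each cell was not used here, so every value pools untreated and treated cells, and a part of the ligand levels that depends on treatment cannot be told apart. With 1 library per depot there is no replicate and no test. The 95% intervals given are exact and cover counting error only.

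FGF ligands bind tyrosine kinase receptors together with heparan sulphate. FGF7 and FGF10 are classically made by mesenchymal cells and act on the epithelial splice form of Fgfr2. FGF10 is also known for its part in the growth of fat cell precursors. FGF1, which binds all FGF receptors, has no signal peptide, and FGF18 belongs to the FGF8 subfamily. Dpp4 marks interstitial progenitors of the adipose stroma, whereas Fabp4 and Adipoq mark cells on the way to becoming adipocytes.

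Cells were kept when over 200 but under 7500 genes were detected and mitochondrial UMIs stayed below 30%. This left 29744 iWAT cells with a median of 16204 UMIs and 28215 iBAT cells with a median of 27235. The libraries also differed in sex. Levels are given as UMIs per 1000000 UMIs of the same cells (CPM), and Xist stood at 345 CPM in iWAT and 0.0505 in iBAT, and the Y-linked Ddx3y at 1.20 and 81.9. Depot, sex and library therefore cannot be told apart, and 8 cell barcodes occurred in both libraries. A cell was assigned to a class with at least 2 UMIs of Epcam (epithelial), Ptprc (immune), Pecam1 (endothelial), Sox10 (Schwann) or Pdgfra (stromal) and none of the other 4 genes. This gave 9632 Pdgfra-positive cells in iWAT and 22476 in iBAT, but 10814 and 3559 cells carried other combinations and 7300 and 1471 had no UMI of any of the 5 genes. The Pdgfra class was missed with exactly 1 UMI by 5564 iWAT cells and 1829 iBAT cells, and depth, Pdgfra level and cell makeup cannot be told apart in the class sizes. Scrublet called 97 of the iWAT and 270 of the iBAT Pdgfra-positive cells doublets, and these were kept. The gates were checked on marker lists without the gate gene itself. Above the level of the other kept cells stood 7 of 7 epithelial genes in Epcam-positive cells, 6 of 6 immune, endothelial or Schwann genes in the corresponding classes of both libraries, and 9 of 9 stromal genes in iWAT and 7 of 9 in iBAT Pdgfra-positive cells. In the iWAT Sox10 class of 107 cells, 5 of 8 epithelial genes were also above the other cells, with Krt14 at 218 CPM. iWAT held 1799 Epcam-positive and 71 Ptprc-positive cells. Its 21 Pecam1-positive cells are too few for a level, and iBAT held no Epcam-positive cell.

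Fgf7 was found mainly in the stroma. In iWAT it reached 103 CPM (102 to 105) in Pdgfra-positive cells and 13.4 (11.8 to 15.0) in Epcam-positive cells. Their log2 ratio was 2.95 (2.78 to 3.13). In iBAT, Pdgfra-positive cells stood at 283 (282 to 284), Sox10-positive cells at 24.9 (21.5 to 28.6), Ptprc-positive cells at 18.6 (13.5 to 24.9) and Pecam1-positive cells at 14.1 (9.90 to 19.6). Over the 4 other classes together, the log2 ratio in favour of the stroma was 2.98 in iWAT and 3.72 in iBAT. It was 2.01 in iWAT with a class gate of 1 UMI, and 2.68 in iBAT where the class gene only had to exceed the other 4 together. No interval of a Pdgfra-positive class touched that of another class of its library.

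Fgf10 followed the same order. Its level in iWAT was 14.9 CPM (14.4 to 15.5) in Pdgfra-positive and 2.04 (1.47 to 2.74) in Epcam-positive cells. In iBAT it was 80.1 (79.4 to 80.8) in Pdgfra-positive cells and between 5.10 and 6.70 in the other 3 classes, whose intervals overlap. Pdgfra-positive cells over the other classes gave a log2 ratio of 2.83 in iWAT and 3.70 in iBAT, which became 1.90 in iWAT with the gate of 1 UMI and 2.68 in iBAT with the dominant class gene. The Pdgfra-positive cells contributed 55.8% of all iWAT and 88.9% of all iBAT Fgf10 UMIs, close to the 55.4% and 88.8% for Fgf7. The class held 37.3% of all UMIs of the kept cells in iWAT and 82.2% in iBAT.

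**Figure D1:**
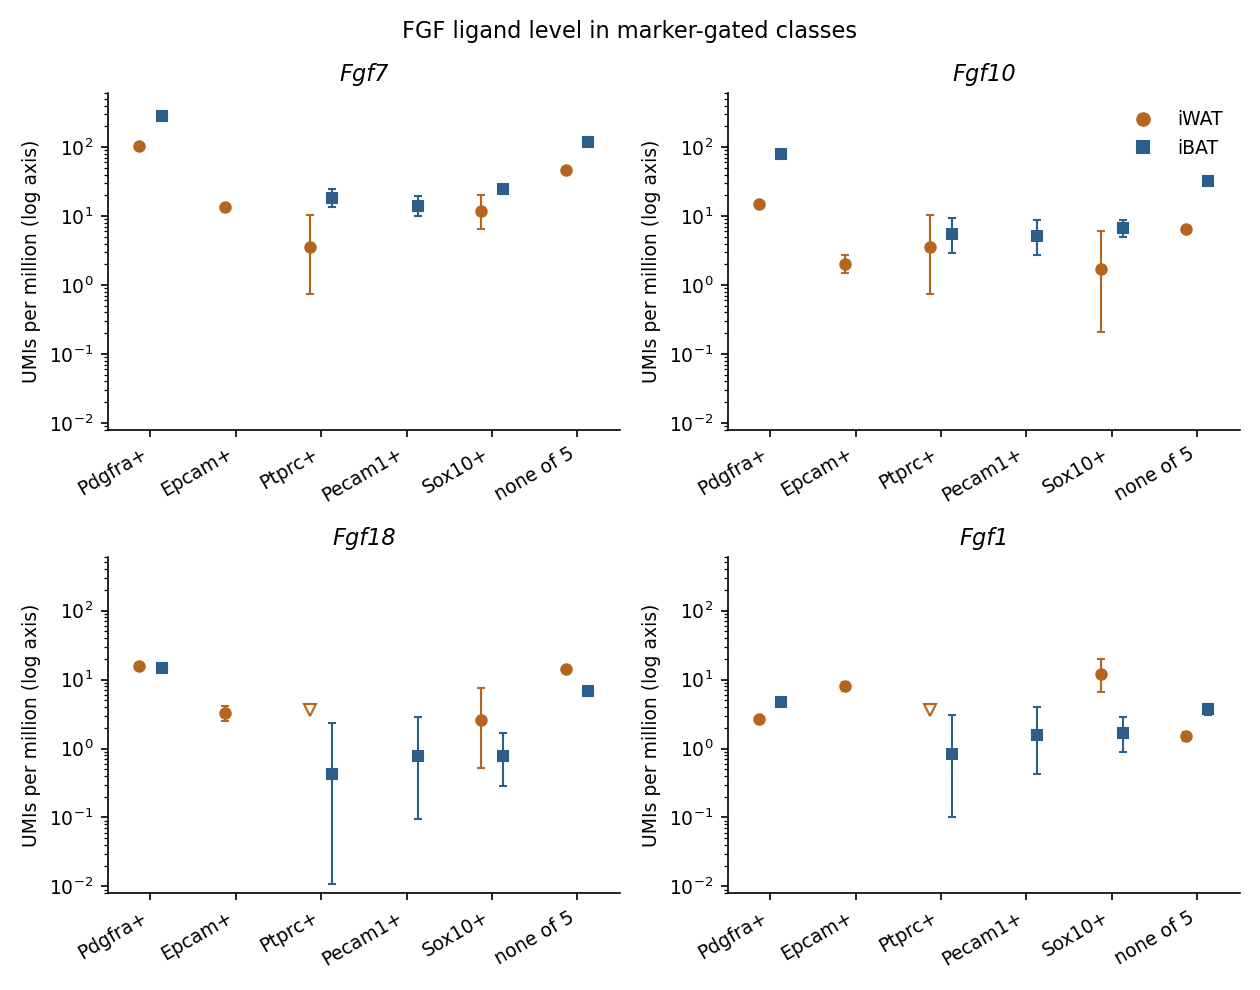
Level of Fgf7, Fgf10, Fgf18 and Fgf1 in CPM (log axis) in cells positive for 1 of 5 marker genes and in cells with none of them, in iWAT (circles) and iBAT (squares). Bars are 95% Poisson intervals, an open triangle is the limit of 3 counts where no UMI was counted, and classes under 50 cells are left out. Fgf7, Fgf10 and Fgf18 are at their highest in Pdgfra-positive cells, whereas iWAT Fgf1 is higher in Epcam-positive and Sox10-positive cells.

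The low levels outside the stroma were set beside those of stromal transcripts (Col1a1, Col1a2, Col3a1, Dcn and Lum), which epithelial, immune and endothelial cells are not known to make in quantity. In iWAT Epcam-positive cells these collagen and proteoglycan transcripts together stood at 17.7% of their Pdgfra-positive level, Fgf7 at 12.9%, Fgf10 at 13.7% and Fgf18 at 21.0%. In iBAT Ptprc-positive cells the stromal transcripts stood at 5.95%, Fgf7 at 6.56% and Fgf10 at 6.85%. In Pecam1-positive cells the values were 10.8%, 4.99% and 6.37%. Among these values, the ligand's percentage was below that of the stromal transcripts except for iWAT Fgf18 and iBAT Fgf7 and Fgf10 in Ptprc-positive cells. Not among them is Fgf1, above the stromal transcripts in iWAT Epcam-positive and in iBAT Ptprc-positive and Pecam1-positive cells. In iWAT Ptprc-positive cells Fgf10 stood at 24.0% against 5.51%, from 3 UMIs. Whether these UMIs are RNA carried over from the stroma was not tested. For iBAT Sox10-positive cells the sum gives no such yardstick, as they hold Col1a1 at 8279 CPM and Lum at 0.129. Their Fgf7 and Fgf10 stood at 8.78% and 8.36% of the stromal level. The number of Fgf7 UMIs per Fgf10 UMI had overlapping intervals across the iBAT classes. It was 3.53 (3.50 to 3.57) in Pdgfra-positive, 3.38 (1.79 to 6.85) in Ptprc-positive, 2.77 (1.43 to 5.69) in Pecam1-positive and 3.71 (2.72 to 5.14) in Sox10-positive cells. In iWAT it was 6.94 (6.67 to 7.22) in Pdgfra-positive and 6.56 (4.75 to 9.26) in Epcam-positive cells.

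Fgf18 was at 15.6 CPM (15.0 to 16.1) in iWAT and 14.8 (14.5 to 15.1) in iBAT Pdgfra-positive cells. It was also low in the other classes, with 3.27 (2.54 to 4.14) in iWAT Epcam-positive cells and between 0.422 and 0.785 in the iBAT classes, where it rests on 9 UMIs in all. The log2 ratio of Pdgfra-positive cells over the other classes was 2.32 in iWAT and 4.38 in iBAT, and fell to 1.36 in iWAT with the gate of 1 UMI and to 3.09 in iBAT with the dominant class gene. Cells with none of the 5 gate genes differed between ligands. In iWAT they held Fgf18 at 14.2, which is 91.4% of the Pdgfra-positive level, but Fgf7 and Fgf10 at only 45.1% and 43.0% of theirs. In iBAT all 3 stood between 40.6% and 46.6%. The stromal transcripts described above stood at 90.8% in iWAT and 123% in iBAT in these cells.

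Fgf1, on chromosome 18, departed from this pattern in iWAT. It was at 2.65 CPM (2.42 to 2.89) in Pdgfra-positive cells but at 7.96 (6.80 to 9.26) in Epcam-positive cells, where 168 UMIs were counted. The log2 ratio of Pdgfra-positive over Epcam-positive cells was -1.59 (-1.84 to -1.32), or 3.00-fold more in the epithelial class. The iWAT Sox10 class, which shares epithelial keratins, held Fgf1 at 11.9 (6.53 to 20.0) from 14 UMIs. Thinning each cell to 10000 UMIs kept only 952 of 1799 Epcam-positive cells but 8938 of 9632 Pdgfra-positive cells. Of the kept Epcam-positive cells 6.41% (4.94 to 8.16) had an Fgf1 UMI, against 2.67% (2.35 to 3.03) of the kept Pdgfra-positive cells. None of the 71 Ptprc-positive cells had one, which allows a level of up to 3.58 CPM at 3 counts, so a difference from the stroma was not detectable there. In iBAT, without an epithelial class, Fgf1 was highest in Pdgfra-positive cells like the other ligands, at 4.70 (4.54 to 4.87) against 0.844 to 1.68 in the other classes.

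Among the 4020 genes at 50 CPM or more in either iWAT class, 11.2% were at least 2-fold higher in Pdgfra-positive cells and 8.86% in Epcam-positive cells. Fgf7 was the only ligand of the 4 that reached this level, and it was among the former. It did so in Pdgfra-positive cells alone, so the filter itself favoured that placing, which adds no support. In iBAT, where Fgf7 and Fgf10 both reached 50 CPM, again in Pdgfra-positive cells alone, both were at least 2-fold higher there in all 3 comparisons. The share of genes higher and lower in this way was 19.8% and 16.5% against Ptprc-positive, 12.7% and 13.4% against Pecam1-positive, and 10.7% and 11.1% against Sox10-positive cells.

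On the receiving side, Fgfr2 stood at 39.8 CPM in iWAT Pdgfra-positive and 56.7 in Epcam-positive cells, a log2 ratio of -0.51 (-0.60 to -0.42). These counts do not separate the splice forms of the receptor. Fgfr1 was higher in the stroma, at 301 against 160.0. Fgfrl1, a receptor without a kinase domain, was higher in the epithelial class, at 55.3 against 19.7. Fgfr3 and Fgfr4 were sparse in the stroma, with Fgfr3 at 0.620 in iWAT and 1.20 in iBAT and Fgfr4 at 0.166 and 0.234.

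Between the depots, Fgf7 and Fgf10 were both higher in iBAT stroma. Fgf7 was at 283 CPM in iBAT and 103 in iWAT Pdgfra-positive cells, a log2 ratio of 1.45 (1.43 to 1.47) or 2.74-fold. Fgf10 was at 80.1 and 14.9, a log2 ratio of 2.43 (2.37 to 2.48) or 5.38-fold. Of 3800 genes at 50 CPM or more in either depot, 3.34% were at least 2-fold higher in iBAT and 3.95% in iWAT. Of these, 30 genes had a higher ratio than Fgf10 and 77 a higher ratio than Fgf7. Fgf7 reached 50 CPM in both depots, but Fgf10 in iBAT alone, so its place in the ranking rests on the depot where it is high. Neither Fgf1 nor Fgf18 reached 50 CPM. Fgf1 had a log2 ratio of 0.83 (0.69 to 0.97). Fgf18 had one of -0.07 (-0.13 to -0.01), a difference that turned to 0.0075 when gate and counts were taken at equal depth.

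At equal depth the contrast was one of the number of cells with a transcript as well. With 10000 UMIs per cell, 84.0% of iBAT and 52.0% of iWAT Pdgfra-positive cells had an Fgf7 UMI, and 43.9% and 11.9% had an Fgf10 UMI. The same share was 10.1% for Fgf7 and 2.00% for Fgf10 in the 952 of 1799 iWAT Epcam-positive cells that reached this depth. That whole class had a median of 10309 UMIs before thinning, against 18844 in the stroma. For Fgf18 the shares of iBAT and iWAT Pdgfra-positive cells were 12.0% and 13.0%, and for Fgf1 4.05% and 2.67%. All 28215 iBAT cells reached this depth, but 5588 iWAT cells did not and were left out. Before thinning, 95.5% and 66.0% had an Fgf7 UMI and 68.2% and 18.7% an Fgf10 UMI.

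The stretch just upstream of Fgf7, Fgf10 and Fgf18 is shown as a description, and none was taken for Fgf1. Whether these stretches bear on the depot difference was not tested. The 250 bases before the first exon at the RefSeq start site are written 5′ to 3′ in the direction of the gene (genome build GRCm39, exons from GENCODE M39). Fgf7 lies on chromosome 2 from 125876578 to 125934218, plus strand, Fgf10 on chromosome 13 from 118806327 to 118928672, plus strand, and Fgf18 on chromosome 11 from 33067014 to 33097828, minus strand. The printed Fgf10 stretch falls inside the annotated span, since another transcript of the gene starts further upstream. Capitals mark the core of a GC box, GGGCGG, on either strand.
Fgf7 chr2:125876328-125876577: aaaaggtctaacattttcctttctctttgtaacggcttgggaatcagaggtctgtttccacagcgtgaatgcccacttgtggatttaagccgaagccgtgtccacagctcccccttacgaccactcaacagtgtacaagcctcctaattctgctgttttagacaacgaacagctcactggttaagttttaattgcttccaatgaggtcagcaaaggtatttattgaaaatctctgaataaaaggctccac
Fgf10 chr13:118850665-118850914: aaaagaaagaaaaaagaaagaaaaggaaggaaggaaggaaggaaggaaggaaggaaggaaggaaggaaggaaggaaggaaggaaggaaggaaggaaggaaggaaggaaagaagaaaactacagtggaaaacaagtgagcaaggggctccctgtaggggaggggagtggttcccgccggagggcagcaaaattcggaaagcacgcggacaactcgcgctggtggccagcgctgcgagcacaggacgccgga
Fgf18 chr11:33097829-33098078: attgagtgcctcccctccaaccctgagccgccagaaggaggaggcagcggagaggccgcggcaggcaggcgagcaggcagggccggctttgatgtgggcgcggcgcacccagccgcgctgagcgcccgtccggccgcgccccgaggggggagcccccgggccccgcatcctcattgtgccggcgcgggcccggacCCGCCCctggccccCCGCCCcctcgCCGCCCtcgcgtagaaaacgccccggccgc
Both strands were searched for the TATA box (TATAAA), for the GC box core named above and for an AP-1 site (TGANTCA). The Fgf7 and Fgf10 stretches held none of them, and that of Fgf18 held 3 GC box cores. These letters occur in 12.3%, 33.0% and 6.73% of 32536 mouse windows of this length. The GC content was 43.6% for Fgf7, 53.2% for Fgf10 and 78.4% for Fgf18, against a median of 52.4%. These are letters in a window, and no binding was measured. An antisense gene, Gm16263, overlaps Fgf10 exons, and whether the counting used strand is not given in the sources used here.

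**Figure D2:**
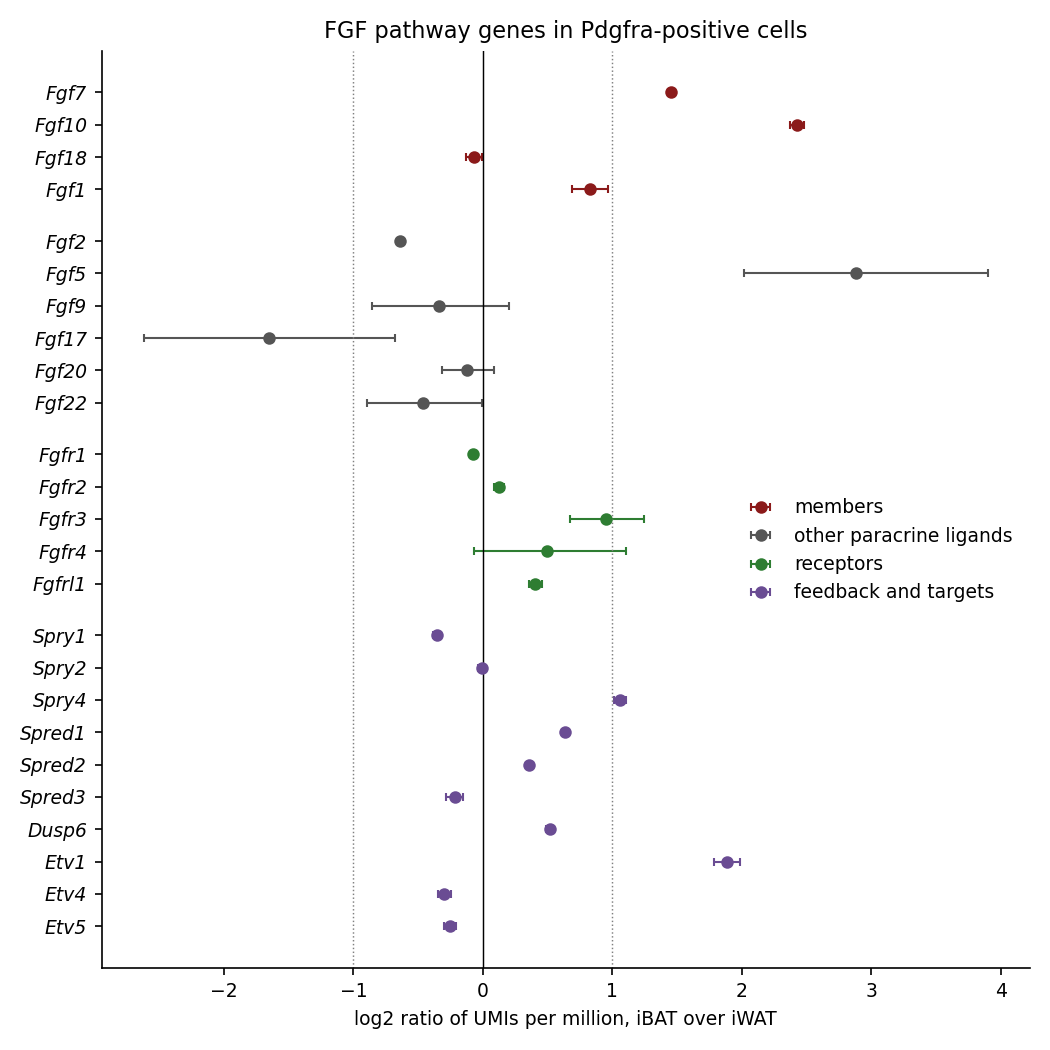
Log2 ratio of CPM, iBAT over iWAT, in Pdgfra-positive cells for the 4 ligands, other paracrine FGF genes, FGF receptors and FGF feedback or target genes. Bars are exact 95% intervals for counting error and dotted lines mark 2-fold. Fgf10 at 2.43 and Fgf7 at 1.45 lie beyond 2-fold, Fgf18 lies close to 0 and Fgf2 lies below it.

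The other members of the pathway did not move as a block. Of 15 paracrine FGF genes, 14 were listed, since Fgf3 is absent from both gene lists. For 4 of them the interval lay above 0 and for 4 below it. Of 25096 genes with a ratio, 33.3% had such an interval above 0 and 28.8% below it. Such an interval depends on the number of UMIs, and several ligand genes had few. The genes were not matched for level, so these shares do not place the ligands against the background. The median log2 ratio of the ligand genes was -0.10, against 0.026 over 26132 genes with a UMI in both libraries. Besides Fgf7, Fgf10 and Fgf1, Fgf5 was higher in iBAT, though at only 0.432 and 0.0588 CPM. In Sox10-positive cells Fgf5 was at 363 CPM in iBAT and 182 in iWAT, and whether its stromal UMIs were carried over was not tested. Fgf2, which lacks a signal peptide like Fgf1, was lower in iBAT, at 195 against 305, a log2 ratio of -0.64. Of the receptors, 3 of 5 were above and 1 of 5 below 0, none by 2-fold. Of the 10 feedback and target genes, which FGF signalling through ERK is known to induce, 5 lay above and 4 below. Spry4, at 41.1 and 19.7 CPM, and Etv1, at 17.1 and 4.63, passed 2-fold in iBAT, whereas Spry1 was lower there, at 47.8 and 61.1. The adipogenic list had the highest median among the progenitor lists, 1.43, with Pparg, Cebpa, Fabp4, Adipoq, Plin1 and Cd36 all over 2-fold higher in iBAT. Of the other 3 genes of that list, Lpl was at 349 CPM in iBAT and 267 in iWAT, Icam1 was lower in iBAT, at 25.7 against 29.1, and Ggt5, at 4.23 against 4.45, had an interval that holds 0. Their part in the ligand difference was not tested.

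Within the stroma, Fgf10 was lower in Dpp4-positive cells than in those gated on Fabp4 and Adipoq, whereas the intervals for Fgf7 held 0. Dpp4-positive cells had at least 2 Dpp4 UMIs, and Adipoq- or Fabp4-high cells at least 3 Adipoq UMIs or 10 Fabp4 UMIs per 10000. The second gate gave 155 cells in iBAT and only 16 in iWAT. A gate relative to the library was therefore used beside it, the 10% of Pdgfra-positive cells with the most Adipoq plus Fabp4 UMIs per 10000. It starts at 1.43 per 10000 in iWAT and 2.45 in iBAT, with medians of 4 and 12 such UMIs per cell, so it ranks cells and does not name a cell type. The sets overlap. Of the 963 iWAT and 2248 iBAT cells ranked in the top 10%, 89.8% and 92.7% belong to the remaining cells, those past neither fixed gate, and 16 of 16 and 154 of 155 Adipoq- or Fabp4-high cells lie among them. Those with at least 2 Dpp4 UMIs, 82 in iWAT and 10 in iBAT, were left out, so the set called top 10% holds 881 and 2238 cells.

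Fgf10 in iBAT was at 93.1 CPM (86.4 to 100.1) in 230 Dpp4-positive cells, 79.5 (78.8 to 80.2) in the remaining cells, 135 (132 to 138) in the top 10% and 149 (138 to 160.5) in Adipoq- or Fabp4-high cells. In iWAT it was at 13.3 (11.8 to 14.9) in 1031 Dpp4-positive cells, 15.1 (14.5 to 15.7) in the remaining cells and 34.4 (31.7 to 37.4) in the top 10%. The 16 iWAT cells past the fixed gate held 10 Fgf10 UMIs, a level of 40.4 (19.4 to 74.3). The log2 ratio of Dpp4-positive over Adipoq- or Fabp4-high cells was -0.68 (-0.83 to -0.52) in iBAT. It was -1.60 (-2.50 to -0.53) in iWAT, where it rests on those 16 cells. Against the top 10%, with the Dpp4-positive cells outside it, it was -0.57 (-0.69 to -0.46) in iBAT and -1.53 (-1.75 to -1.31) in iWAT. In both libraries Fgf10 was thus lower in Dpp4-positive cells than in cells gated on Fabp4 and Adipoq UMIs. In iBAT the fixed gate rests mostly on Fabp4, since its 155 cells held 12809 Fabp4 and 1112 Adipoq UMIs. In iWAT the gates rest on Fabp4, since the top 10% held 4902 Fabp4 and 6 Adipoq UMIs and the 16 cells held 357 and 1. Pparg and Cebpa in those 16 cells rest on 3 UMIs each, with intervals against the remaining cells that hold 0, and no Plin1 UMI was counted there. Against the remaining cells the direction differed, with log2 ratios of Dpp4-positive cells of 0.23 (0.12 to 0.33) in iBAT and -0.18 (-0.36 to -0.0040) in iWAT, a difference between libraries that was not tested.

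Fgf7 was nearly level between Dpp4-positive, remaining and top 10% cells. It was at 101 CPM (96.5 to 105) in Dpp4-positive, 104 (102 to 105) in remaining and 101 (96.4 to 106) in top 10% cells of iWAT. In iBAT the values were 270.1 (259 to 282), 284 (282 to 285) and 279 (275 to 283), with 252 (237 to 267) in Adipoq- or Fabp4-high cells. The 16 high cells of iWAT stood at 68.7 from 17 UMIs. Dpp4-positive over Adipoq- or Fabp4-high cells gave a log2 ratio of 0.10 (-0.0042 to 0.21) in iBAT and 0.55 (-0.13 to 1.33) in iWAT. The log2 ratio of Dpp4-positive cells over the top 10% was -0.04 (-0.13 to 0.06) in iWAT and -0.06 (-0.13 to 0.0023) in iBAT. In Adipoq- or Fabp4-high cells of iBAT it was below the remaining cells, by a log2 ratio of -0.17 (-0.26 to -0.087). The number of Fgf7 UMIs per Fgf10 UMI was 8.28 in iWAT Dpp4-positive cells outside the top 10% and 2.94 in the top 10%, and 2.94 and 2.07 in iBAT.

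**Figure D3:**
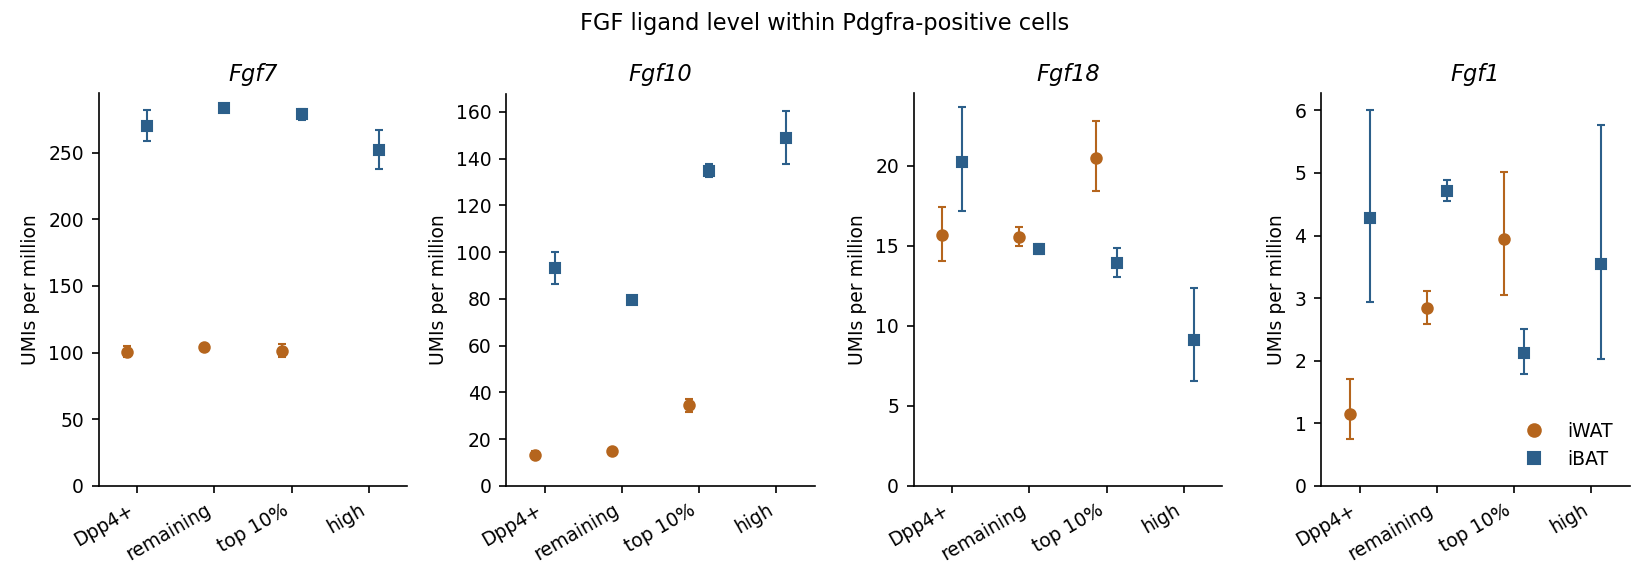
Level of each ligand in CPM in Dpp4-positive cells, the remaining Pdgfra-positive cells, the top 10% by Adipoq plus Fabp4, and Adipoq- or Fabp4-high cells (high), with 95% Poisson intervals. The iWAT set of 16 high cells is left out, and most top 10% cells, from which Dpp4-positive cells were removed, are also counted among the remaining cells. Fgf10 is higher in the top 10% than in Dpp4-positive cells of both libraries, Fgf7 is nearly level, and Fgf1 and Fgf18 go in opposite directions in the libraries.

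Fgf18 in iBAT was higher in Dpp4-positive cells, at 20.2 CPM (17.2 to 23.7), than in Adipoq- or Fabp4-high cells, at 9.09 (6.52 to 12.3), a log2 ratio of 1.15 (0.65 to 1.69). Against the top 10% the ratio was 0.53 (0.27 to 0.78). In iWAT it went the other way, with 15.6 in Dpp4-positive and 20.5 in top 10% cells, -0.39 (-0.62 to -0.17). Fgf1 was at 1.09 against 3.95 in iWAT, -1.85 (-2.62 to -1.14), and at 4.32 against 2.13 in iBAT, 1.02 (0.42 to 1.58), from 22, 66, 32 and 145 UMIs. Against Adipoq- or Fabp4-high cells of iBAT, the Fgf1 ratio of 0.27 had an interval that holds 0 (-0.63 to 1.23).

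The background for these contrasts was small. Of 3808 genes, 2.97% were at least 2-fold higher in iBAT Dpp4-positive and 4.44% in Adipoq- or Fabp4-high cells. Against the top 10% the shares were 0.39% and 0.418% of 3587 genes in iWAT and 0.412% and 1.29% of 3640 genes in iBAT. Neither Fgf7 nor Fgf10 in iBAT, nor Fgf7 in iWAT, was among them. Fgf10 in iWAT, 2.89-fold higher in the top 10%, was under 50 CPM. The sets were compared on the progenitor lists without Dpp4, Fabp4 and Adipoq, whose direction the gates fix. For Dpp4-positive cells over the top 10% in iBAT, 4 of 6 interstitial genes had an interval above 0 and 0 below, and 0 of 7 adipogenic genes had one above and 6 below. Of all 18000 genes with a ratio there, 14.6% had an interval above 0 and 10.4% below. In iWAT, 3 of 6 interstitial genes lay above and 1 below, and 1 of 7 adipogenic genes lay above and 4 below, against 22.2% and 11.4% of 17282 genes. The iWAT exceptions were Wnt2, lower in Dpp4-positive cells by a log2 ratio of -0.59, and Ggt5, higher by 0.47. Here and below, the genes behind such shares were not matched to the lists for level, on which these intervals depend.

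The ligands were next compared within single cells at equal depth. In iWAT, 36.7% of 8938 Pdgfra-positive cells had no UMI of any of the 4 ligands, 48.6% had 1 of them, 13.2% had 2, 1.44% had 3 and 0.0783% had all 4. In iBAT the shares of 22476 cells were 9.49%, 44.0%, 39.8%, 6.47% and 0.214%. Fgf7 and Fgf10 were found together in 6.81% (6.30 to 7.36) of iWAT cells, where the product of their separate shares is 6.19%, a quotient of 1.10. In iBAT they were found together in 38.5% (37.8 to 39.1) of cells against a product of 36.9%, a quotient of 1.04. The quotient cannot exceed the inverse of the larger single share. With Fgf7 in most iBAT cells it had less room to rise there, so the quotients of the libraries are not on one scale. An Fgf10 UMI was present in 45.8% of iBAT cells with an Fgf7 UMI and in 34.0% of those without, and in 13.1% and 10.6% of iWAT cells.

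Most other pairs were close to the product too, and the same bound holds for them. Fgf7 with Fgf18 gave 1.00 in iWAT and 1.06 in iBAT, and Fgf10 with Fgf18 gave 1.13 and 1.03. Fgf1 with Fgf10 gave 1.62 in iWAT, where it rests on 46 cells, and 1.10 in iBAT. Fgf1 with Fgf7 gave 1.21 and 1.05, and Fgf1 with Fgf18 gave 1.32 from 41 cells and 0.955. Fgf10 with Fgf2 gave 1.03 and 1.10. A quotient near 1 leaves room for a graded relation, and the level of Fgf10 did differ by Fgf7. In iBAT it was at 54.6 CPM (52.2 to 57.1) in cells without Fgf7, 65.4 with 1 Fgf7 UMI, 81.1 with 2 to 4 and 103 (100.1 to 106) with 5 or more. In iWAT the values were 13.5 (12.4 to 14.7), 14.4, 18.8 and 22.3 (17.7 to 27.8). Fgf18 followed Fgf7 in iBAT, from 10.3 (9.27 to 11.4) to 19.0 (17.8 to 20.3), but not in iWAT, with 15.7 (14.5 to 16.9) and 14.5 (10.8 to 19.0). Fgf1 was at 3.47 and 6.72 in the lowest and highest iBAT bin and at 2.10 and 8.38 in iWAT. The relation was not confined to these ligands, as Fgf2 was at 134 and 242 in these iBAT bins and at 265 and 391 in iWAT.

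**Figure D4:**
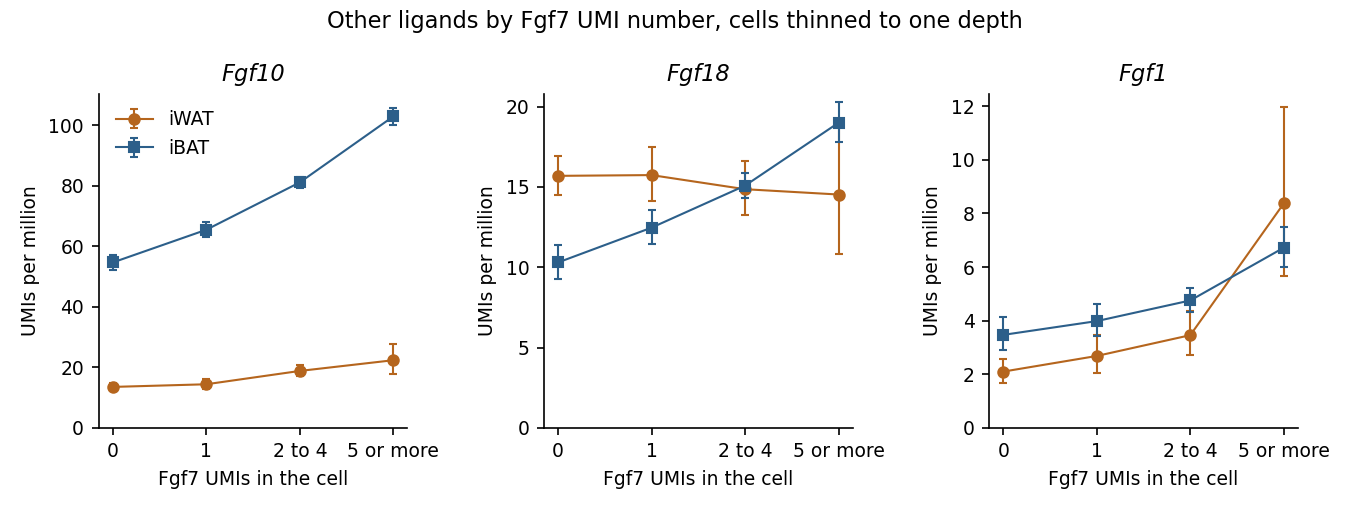
Level of Fgf10, Fgf18 and Fgf1 in CPM in Pdgfra-positive cells with 0, 1, 2 to 4, or 5 or more Fgf7 UMIs, each cell thinned to 10000 UMIs, with 95% Poisson intervals. Fgf10, Fgf1 and, not drawn, Fgf2 are higher in bins with more Fgf7 in both libraries, and Fgf18 in iBAT alone. The difference between libraries in this respect was not tested.

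Fgf7 was spread over cells more unevenly than counting alone gives. At equal depth its variance over the mean was 2.11 in iWAT and 2.20 in iBAT, where a Poisson count has 1. It was absent from 48.0% of iWAT cells, where a Poisson count of that mean gives 33.7%, and from 16.0% of iBAT cells in place of 5.83%. For Fgf10 the variance over the mean was 1.44 and 1.85, for Fgf18 1.23 and 1.33 and for Fgf1 1.09 and 1.44. Fgf2 had 2.66 and 3.20, so such an excess is not particular to Fgf7, and genes beyond these were not examined. This quotient depends on the mean, so it does not rank the ligands by unevenness. The mean was 1.09 and 2.84 UMIs per cell for Fgf7 but 0.0281 and 0.0482 for Fgf1. The levels also differed by cell cycle. Fgf10 was at 13.8 CPM in iWAT cells with an Mki67 or Top2a UMI and at 16.5 in cells with neither, a log2 ratio of -0.26 (-0.37 to -0.15). In iBAT the levels were 71.4 and 94.7, a ratio of -0.41 (-0.43 to -0.38). Fgf18 was likewise lower in cycling cells, by -0.38 and -0.49. Fgf7 gave 0.099 in iWAT and -0.17 in iBAT.

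The genes that went with each ligand differed. Pdgfra-positive cells with an Fgf10 UMI at equal depth were compared with those without, and genes were ranked by the smaller of the ratios in the libraries, so that agreement in direction is fixed by the rule. Cells were split on thinned counts, but levels use all their UMIs. Cells without a thinned Fgf10 UMI still held Fgf10 at 5.21 CPM in iWAT and 29.7 in iBAT, against 86.2 and 142. The ratios are therefore not those of cells that have and lack the transcript. Of 3200 genes ranked, Fabp4 came first, at 95.9 against 41.3 CPM in iWAT and 133 against 76.9 in iBAT. The fatty acid carrier was followed by Slfn5, Gpm6b, Lpl (lipoprotein lipase), Spp1 (osteopontin), Mmp3, Jam2, Ch25h, Lgi2 and Cxcl14. Lpl was at 348 against 255 and at 457 against 262, and the chemokine Cxcl14 at 2175 against 1016 and 414 against 323. At the other end, in a list added after the values were seen, cells with Fgf10 had less Ccn5, Slc7a5, Creb3l1, Fhl1, Pxdn, Ccn4, Cdca8, Asns, Cdc20 and Lsp1, among them an amino acid transporter (Slc7a5), asparagine synthetase (Asns) and genes of mitosis (Cdca8, Cdc20). Most of these differences were small, and 2 genes in iWAT and none in iBAT passed 2-fold.

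Of the 9 adipogenic genes fixed as a list, 5 in iWAT and 7 in iBAT had an interval above 0 in cells with Fgf10, and 0 and 1 below. Over all genes with a ratio, 9.39% in iWAT and 17.4% in iBAT lay above 0 and 8.54% and 13.5% below. These shares and the list counts are set by cell number too, as 1064 iWAT and 9871 iBAT cells had an Fgf10 UMI at equal depth. The median log2 ratio of the adipogenic genes was 0.37 and 0.51, against -0.0084 and -0.0022 over the ranked genes. Pparg, the master regulator of fat cell formation, was at 20.6 against 10.2 CPM in iWAT and 38.7 against 24.6 in iBAT. Cebpa was at 13.6 against 10.6 and 86.5 against 60.9. Adipoq in iBAT was the exception, at 1.58 against 2.36. Of the 7 interstitial genes, 0 lay above and 1 below 0 in iWAT, and 5 above and 0 below in iBAT. Among the 10 FGF feedback and target genes 4 lay above 0 in iWAT and 8 in iBAT, with 1 below in each (Spry1 in iWAT, by -0.14, and Etv4 in iBAT, by -0.12) and Dusp6 at 63.9 against 46.9 and 76.4 against 65.0. The cells with Fgf10 and the top 10% by Adipoq plus Fabp4 come from the same libraries, so the lists do not support each other independently.

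For Fgf7, of 3206 ranked, the first 10 were Mmp3, Sfrp1, Adcyap1r1, Il11, Igfbp4, Igfbp5, Emb, Vcam1, Ptx3 and Ly6a. Cells without a thinned Fgf7 UMI still held Fgf7 at 25.3 CPM in iWAT and 77.4 in iBAT, against 178 and 322 in cells with one. Mmp3, a matrix metalloproteinase, was at 940.4 against 390.0 CPM in iWAT and 384 against 147 in iBAT. Sfrp1, a secreted Wnt antagonist, was at 208 against 106 and 769 against 437. At the other end, likewise added later, stood Acta1, Col5a3, Col8a1, Tgfb3, Hbegf, Tubb3, Acta2, Loxl2, Slc20a1 and Filip1l, of which Acta2 is smooth muscle actin. Acta2 was at 2162 against 2745 in iWAT and 1891 against 2326 in iBAT. Mmp3 was the only gene among the first 10 of both ligands.

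All 5 genes of the regulatory stromal list had intervals above 0 in cells with Fgf7, in both libraries. Of all genes with a ratio, 13.3% in iWAT and 16% in iBAT lay above 0, and 10.1% and 15.4% below. In cells with Fgf10 the same list had 5 genes above 0 in iWAT, but 2 above and 2 below in iBAT. For Fgf7 the median log2 ratio of the list was 0.93 in iWAT and 0.72 in iBAT, against 0.0032 and -0.0056 over the ranked genes. Gdf10, a member of the TGF-beta superfamily, was at 38.8 against 7.57 CPM in iWAT and 24.4 against 9.37 in iBAT. Meox2 was at 7.50 against 2.14 and 26.7 against 16.2, and Fmo2 at 59.9 against 31.5 and 8.30 against 4.43. Of the 9 adipogenic genes, 3 lay above and 2 below 0 in iWAT, and 4 above and 4 below in iBAT, with medians of 0.12 and 0.0026. In iBAT, Icam1, Cebpa, Lpl and Ggt5 were higher in cells with Fgf7, and Adipoq, Cd36, Plin1 and Fabp4 were lower. Mki67 was at 125 against 106 in iWAT and at 101 against 111 in iBAT, so its direction differed.

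**Figure D5:**
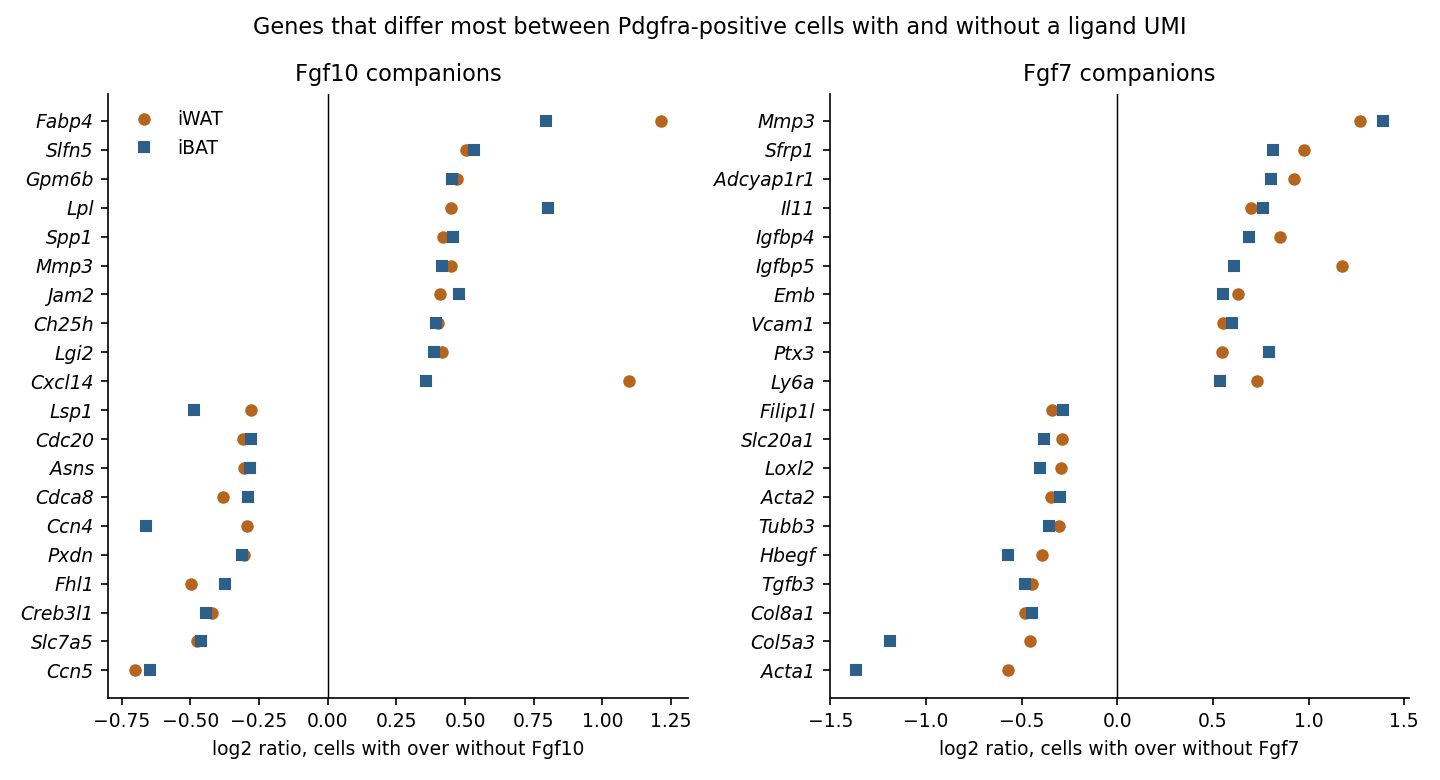
Log2 ratio of CPM between Pdgfra-positive cells with and without an Fgf10 UMI (left) or an Fgf7 UMI (right), for the 10 genes ranked highest and the 10 ranked lowest in both iWAT (circles) and iBAT (squares). The genes were chosen by these ratios. Fabp4 leads for Fgf10, at 1.21 and 0.80, and Mmp3 for Fgf7, at 1.27 and 1.39.

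Across 11 points, each a class or stromal set of at least 50 cells in 1 library, the levels of Fgf7 and Fgf10 had a Pearson r of 0.92, Fgf7 and Fgf18 one of 0.89 and Fgf10 and Fgf18 one of 0.71. Fgf1 had r between 0.095 and 0.43 with the others. The points share libraries and depth, so r is a description. They mix stromal sets with other classes, and Fgf7, Fgf10 and Fgf18 were each higher in the stroma, so a high r among them follows in part from that split. The 5 genes most like Fgf7 were Ddr2, Bicc1, Ebf2, Grem1 and Rasl11a (r from 0.97 to 0.98), and those most like Fgf10 were Vegfd, Ccl11, Rasl11a, Fech and Efemp1 (0.96 to 0.99). For Fgf18 they were En1, Cd248, Bcat1, Tmem45a and Thy1 (all 0.99) and for Fgf1 Lurap1l, Ntn1, Churc1, Psmb1 and Sox9 (0.90 to 0.93). Rasl11a stood on the lists of Fgf7 and of Fgf10.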

How the data were processed

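Stromal vascular cells of iWAT and iBAT were measured in 1 BD Rhapsody library per depot. The authors deposited unnormalized UMI counts, 1 matrix of genes by cells per depot. Per the labels, the reads were handled on genome build mm39 and Seurat 5.0.0 was used; the study's methods name a commercial online pipeline for alignment and annotation, and its aligner, gene annotation and treatment of strand are not given in the sources used here. The barcode with the fewest UMIs had 5790 in iWAT and 10532 in iBAT, so barcodes were selected before deposit. Per-cell treatment tags were not used here.

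The filter on cells follows the published methods. Counts were summed per set and scaled to CPM, with exact Poisson intervals for levels, Clopper-Pearson intervals for shares and exact conditional binomial intervals for ratios, at 95%. No test was made. A level against 0 counts was read at 3 counts. Thinning drew 10000 UMIs per cell without replacement. Scrublet (scanpy 1.11.5, rate 0.08) set no usable threshold in iBAT, where it called 0 cells, so the iWAT threshold was applied, giving 561 and 398 doublets, which were kept. Routines ran in Python 3.11.15 with numpy 2.4.6 and scipy 1.17.1 and were tested on simulated data. The genes, lists, gates and rules were chosen with earlier results of these data known. Named are the 4 ligands, the listed pathway and progenitor genes, the 5 genes most like each ligand and the 10 companions in each direction; the 10 lower companions were added after the values were seen. The alternatives are gates, doublets, depth, scaling, the upper limit on genes and the 50 CPM minimum. Taking all kept cells, a gate on the dominant marker and companions at 5000 UMIs were added after seeing the data.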

Additional observations from a re-analysis of the deposited data

Results flagged for a closer look

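Opposite directions in the libraries were seen for 4 ligand ratios within Pdgfra-positive cells and for Fgf1 between classes, and the difference between libraries was not tested. For Dpp4-positive cells over the top 10% by Adipoq plus Fabp4, the log2 ratio of Fgf1 was -1.85 in iWAT and 1.02 in iBAT, and that of Fgf18 was -0.39 in iWAT and 0.53 in iBAT. For Dpp4-positive over remaining cells, the log2 ratio of Fgf10 was -0.18 in iWAT and 0.23 in iBAT. For cells with an Mki67 or Top2a UMI over cells with neither, the log2 ratio of Fgf7 was 0.099 in iWAT and -0.17 in iBAT. For Pdgfra-positive cells, the log2 ratio of Fgf1 was -1.55 in iWAT and 1.65 in iBAT over the other classes together, of which iBAT has no Epcam-positive cells, and -2.17 and 1.49 over Sox10-positive cells. The Sox10 classes held 14 and 13 Fgf1 UMIs and are unlike. The epithelial list summed to 772 CPM in that of iWAT and 2.32 in that of iBAT. Each ratio has an interval for counting error that excludes 0, and depot, sex and library cannot be told apart.

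The barcodes that the cell filter left out also held ligand UMIs, above the 3 counts that a count of 0 allows. In iWAT, 218 such barcodes held 4 UMIs of Fgf1, 103 of Fgf7, 15 of Fgf10 and 23 of Fgf18. In iBAT, 421 barcodes, of which 414 had at least 7500 genes, held 117 UMIs of Fgf1, 6575 of Fgf7, 2039 of Fgf10 and 308 of Fgf18. The iBAT levels there, 276 CPM for Fgf7 and 85.5 for Fgf10, lay near those of the Pdgfra-positive cells that were kept.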

How the results depend on the processing

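No paired analysis was possible because each depot has 1 library and the labels give no replicate numbers that the groups share. Of the alternative values for the main comparisons, 59 stayed within the interval of the reported value (or within 1.5 times, for counts), 27 moved further and 1 crossed 0 from an interval that excluded it. The log2 ratio of Fgf18, iBAT over iWAT, was -0.07 and became 0.0075 with gate and counts at 10000 UMIs, and -0.15 with 1 Pdgfra UMI. With 1 Pdgfra UMI the ratios were 0.98 for Fgf1, 1.61 for Fgf7 and 2.59 for Fgf10, and over all kept cells 0.61, 1.91 and 2.89. Fgf7 was also 1.28 at 10000 UMIs and 1.43 with median-of-ratios scaling. For Pdgfra-positive over the other classes, a gate of 1 UMI gave -1.30 for Fgf1, 2.01 for Fgf7, 1.90 for Fgf10 and 1.36 for Fgf18 in iWAT, and 3.10 for both Fgf7 and Fgf10 in iBAT. Requiring the class gene to exceed the other 4 together gave 2.68 for Fgf7, 2.68 for Fgf10 and 3.09 for Fgf18 in iBAT. Without doublets Fgf7 in iWAT was 3.20. For Dpp4-positive over Adipoq- or Fabp4-high cells, the top 10% gave -0.065 for Fgf7 and 0.53 for Fgf18 in iBAT, and sets at 10000 UMIs gave -1.26 for Fgf10 in iBAT and -0.29 for Fgf7 in iWAT, so that Fgf7 crossed 0 in both libraries (from 0.10 in iBAT and 0.55 in iWAT, intervals that hold 0). Fgf7 in iWAT was also -0.036 for the top 10%, and Fgf1 in iBAT went from 0.27 to -0.12 at 10000 UMIs. The co-detection quotient of Fgf7 and Fgf10 in iBAT was 1.07 at 5000 UMIs and 1.02 without thinning, depths that also change its upper bound. With 10 CPM as the minimum, 319 genes in place of 127 were at least 2-fold higher in iBAT and 396 in place of 150 in iWAT, of 8982 genes in place of 3800, or 3.55% in place of 3.34% and 4.41% in place of 3.95%. The causes of the other changes were not tested. Among values for single comparisons of the named genes, 100 stayed and 46 moved, with 0 crossing 0. Spearman's rho kept 2, 2, 3 and 1 of the 5 genes most like Fgf1, Fgf7, Fgf10 and Fgf18, and thinning to 5000 UMIs kept 9 and 7 of the 10 companions of Fgf10 and Fgf7.

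Intervals cover counting error only, and neither depot nor sex is replicated. A cell under 2 UMIs of its class gene is missed, and 5564 cells stood at 1 Pdgfra UMI in the shallower iWAT library against 1829 in iBAT. Fgf1 in iBAT classes outside the stroma rests on 19 UMIs and Fgf18 on 9.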
